A study of Mus musculus with 28 samples.

Results

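The comparison described here set regulatory T (Treg) cells of the spleen against thymic CD4 T cells of the conventional lineage, in wild-type mice. Its members were 9 of the series' 28 libraries, chosen by their titles: 3 of splenic rTreg, 3 of splenic aTreg and 3 of thymic mCD4SP, called CD4SP below. The contrast was the mean of the rTreg and the aTreg group, with equal weight, minus the CD4SP group on the log2 scale. The titles do not expand r, a or m, and the names are used here as the titles give them.

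All 9 libraries came from male Foxp3-gfp mice aged 6 to 8 weeks, which carry a green fluorescent reporter at Foxp3 and are labelled wild type (WT). The rTreg and aTreg libraries are labelled as regulatory T cells, and the CD4SP libraries as CD4 single-positive cells that were not Treg. Thymic Treg of mice with the same WT label (3 libraries) served as a second reference. Tissue and cell type changed together between the splenic Treg and the thymic CD4SP groups and cannot be told apart in that contrast alone. The same contrast was also computed in mice of the Foxp3ΔCNS3-gfp line, labelled KO, whose Foxp3 locus lacks an enhancer called conserved non-coding sequence 3 (4 libraries in each of the 3 groups). The design text speaks of littermates but ties no library to an animal, so p-values measure the spread between libraries, which may in part be technical.

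Treg cells restrain immune responses and depend on the transcription factor Foxp3, which is encoded on the X chromosome and is switched on in the thymus in a fraction of CD4 cells that meet self-antigen. They carry the high-affinity interleukin-2 (IL-2) receptor but make little IL-2 themselves, so that IL-2 from other cells sustains them through the kinases JAK1 and JAK3 and the factor STAT5. In spleen and lymph nodes, Treg cells range from naive-like cells that recirculate through lymphoid tissue to activated cells with effector molecules and receptors for tissue homing. Conventional CD4 single-positive thymocytes, by contrast, include naive cells about to leave the thymus.

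The 9 libraries held between 26928420 and 40754492 reads counted in genes, and 13338 genes passed the filter on low counts. Levels are given on the counts-per-million (CPM) scale, with library totals adjusted by edgeR's trimmed mean of M-values, and each difference is a log2 fold change with its standard error and a Benjamini-Hochberg adjusted p from edgeR's quasi-likelihood test, called past the test where the adjusted p was below 0.05. In a principal component analysis of the 12 WT libraries the first component held 57.5% of the variance. CD4SP libraries sat between -107 and -102 on it, rTreg between 4.89 and 8.52, thymic Treg between 20.001 and 23.8, and aTreg between 71.4 and 83.5. T cell identity was checked on 10 genes, which together reached 12756 to 13843 CPM in CD4SP, 8796 to 9828 in rTreg and 9746 to 10496 in aTreg.

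Transcripts of other cell types were not equal between the groups. The 14 B cell markers summed to 17.6 to 27.8 CPM in CD4SP, 134 to 185 in rTreg and 152 to 211 in aTreg. The 11 dendritic cell markers, among them the MHC class II genes, summed to 47.1 to 70.4 CPM in CD4SP, 317 to 450 in rTreg and 809 to 1504 in aTreg. The 17 myeloid markers rose less in rTreg (124 to 132 CPM against 93.7 to 107 in CD4SP) than in aTreg, where they reached 353 to 470. Thymic Treg libraries also held more of these transcripts than CD4SP, with 95.6 to 112 CPM of B cell, 442 to 610 of dendritic cell and 326 to 457.7 of myeloid markers. The first aTreg library held the most dendritic, plasma cell and erythroid transcripts of the 9. In a bulk library, fewer cells of a type and less RNA per cell cannot be told apart. The part of these cells in the results below was not tested, beyond values from a fit with their marker level.

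**Figure D1:**
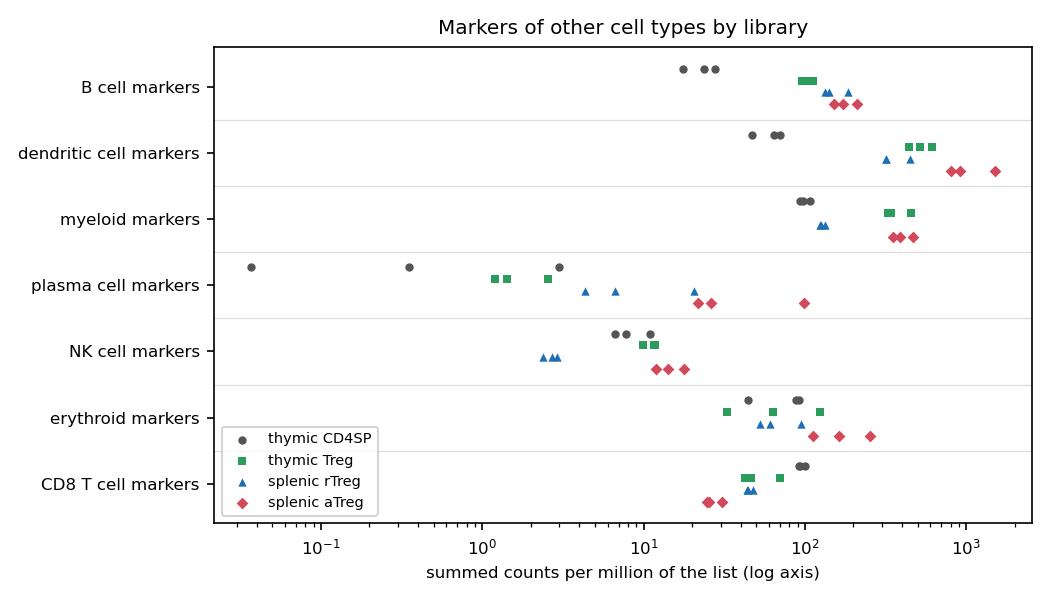
Summed CPM of marker lists of other cell types (log axis), 1 point a library, for the 4 WT groups with 3 libraries each. B cell and dendritic cell markers were lowest in the CD4SP libraries, and CD8 markers were lowest in aTreg, with 24.9 to 30.6 CPM.

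Relative to CD4SP, the splenic mean was higher at 3691 genes (27.7% of those tested) and lower at 3442 (25.8%). Each count of a gene list in the mean given below is to be read against these shares. The rises were larger than the falls: 1901 rises and 755 falls exceeded a factor of 2 (1 on the log2 scale), and 559 rises and 77 falls exceeded 4 on the log2 scale. The median size of a called rise was 1.07 and that of a called fall 0.47, while the median over all genes was 0.0035. A fit with the summed B, dendritic and myeloid cell marker level of each library as a term was added after seeing the data. It called 1737 rises and 1326 falls. That level separated the WT splenic from the WT CD4SP libraries, so the fit cannot tell marker level and group apart. All 6 splenic libraries lay above all 3 CD4SP libraries at 2629 genes (19.7%), and below them at 2240 (16.8%). Taken singly, rTreg was higher than CD4SP at 3102 genes (23.3%) and lower at 2623 (19.7%), and aTreg was higher at 3867 (29.0%) and lower at 3503 (26.3%).

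Foxp3, the lineage factor, lies on chromosome X (7573644 to 7595245, plus strand, mm10). Its transcript stood at 3.23, 3.38 and 3.49 CPM in the CD4SP libraries, at 614, 663 and 579 CPM in rTreg and at 654, 587 and 595 CPM in aTreg. The rTreg and aTreg libraries overlapped each other and lay far above CD4SP, by a log2 fold change of 7.51 ± 0.13 (SE), or 182-fold (adjusted p = 3.6e-26 in edgeR). The groups are labelled Treg and not Treg, a distinction that Foxp3 defines. This gap therefore followed from how the groups were chosen, and its p-value is no evidence of a difference found here. The aTreg minus rTreg difference of Foxp3 was -0.02, with an adjusted p of 0.92 in the same edgeR test, and thymic Treg held 652 CPM. A missed threshold does not show that the states were equal, but their libraries were interleaved.

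Every one of the 27 genes in the Treg signature list rose in the splenic mean, with a median log2 fold change of 4.68 (all genes: 0.0035). The list was drawn up with earlier results of these data known, so its direction is no independent evidence. In rTreg 26 of 27 rose, with a median of 4.46, and Icos (inducible co-stimulator) was the exception at 308 ± 29.0 CPM against 298 ± 13 in CD4SP (SD, n = 3 each). In aTreg all 27 rose, with a median of 4.81.

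The IL-2 receptor showed which chains carried the change. Il2ra, the alpha chain that gives high affinity, was at 8.38, 7.77 and 11.6 CPM in CD4SP, at 2029, 2016 and 2193 CPM in rTreg and at 1333, 1432 and 1463 CPM in aTreg. All rTreg libraries were above all aTreg libraries and both were above CD4SP, yet the gap between the states (-0.56) was not past the test. Il2rb, the signalling beta chain, was at 65.2, 59.6 and 65.0 CPM in CD4SP, at 1790, 2094 and 1679 CPM in rTreg and at 1430, 1426 and 1398 CPM in aTreg. It rose 25.6-fold in the mean and was lower in aTreg than in rTreg by 0.39. The common gamma chain Il2rg, which several cytokine receptors share, did not pass the test (log2 fold change -0.07), with group means between 2462 and 2608 CPM.

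Lrrc32 encodes GARP, the surface protein that holds latent TGF-beta on Treg cells (chromosome 7, 98489283 to 98502181, plus strand). Its CPM were 0.519, 0.303 and 0.107 in CD4SP, 370, 398 and 320 in rTreg, and 263, 263 and 246 in aTreg. The groups did not overlap, the mean rose by 10.02 ± 0.18 on the log2 scale, and rTreg stood above aTreg by 0.50. The other signature genes rose with a wide span, from Icos at 1.40 and Ikzf4 (the Ikaros-family factor Eos) at 1.59 to Tigit at 8.56 and Socs2 at 8.83. Lrrc32 lay beyond these, and Klrg1 had too few CD4SP reads for a stable fold. Among the better known, Ctla4 (the inhibitory receptor that competes for B7 ligands) rose 39.4-fold, Ikzf2 (Helios) 22.4-fold and Nrp1 (neuropilin-1, a marker of thymus-derived Treg cells) 30.1-fold. Ctla4 was at 496 ± 4.35 CPM in rTreg and 1206 ± 6.87 CPM in aTreg, whereas Nrp1 differed between the states by -0.20, which did not pass the test.

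**Figure D2:**
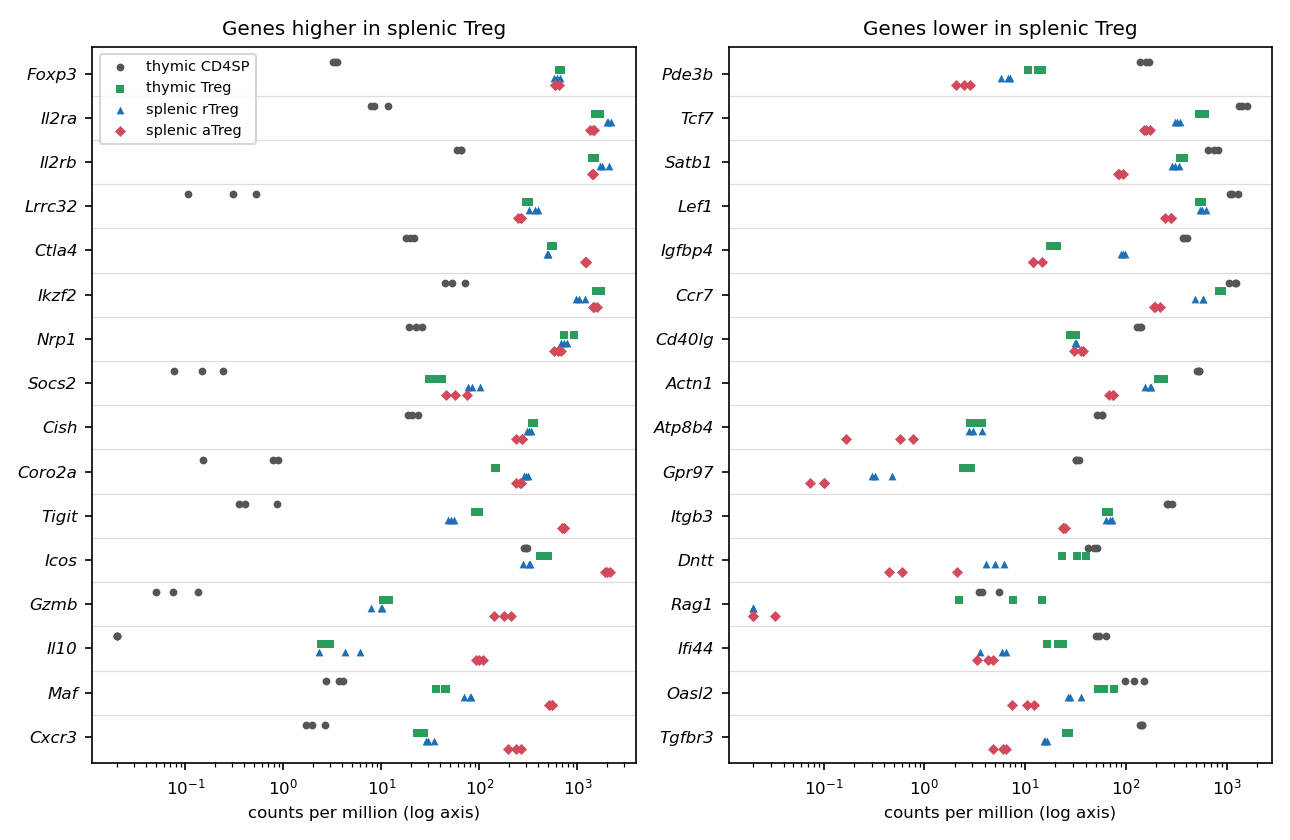
CPM (log axis) in each of the 3 libraries of the 4 WT groups, for 16 genes that were higher and 16 that were lower in the splenic Treg mean. Values under 0.02 are drawn at 0.02. The rows of Foxp3, Nrp1 and Cd40lg show splenic states that overlap, while Tigit, Gzmb, Igfbp4 and Satb1 show states that stand apart.

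The 14 largest rises, by the naming rule, were Gbp1, Il10, Bpifa2, Klrg1, Atp6v0d2, Lrrc32, Serpina3g, Cep112, Serpina3f, Hepacam2, Coro2a, Glt28d2, Socs2 and Gzmb. Most of them were nearly silent in CD4SP, so their fold changes rest on few CD4SP reads. Gbp1, an interferon-inducible guanylate-binding GTPase, had 2 reads over the 3 CD4SP libraries, against 83.2, 111 and 100 CPM in rTreg and 224, 194 and 212 CPM in aTreg. This is a ratio of 8000 with a 95% counting interval of 2215 to 66060. Gbp1 has near-identical neighbours on chromosome 3, and reads that aligned to several places were set aside, so the level is uncertain.

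Il10, the gene of an anti-inflammatory cytokine, had no read in CD4SP. It reached 2.30, 6.02 and 4.25 CPM in rTreg and 91.6, 110 and 98.7 CPM in aTreg, so the splenic mean was at least 1802-fold higher than the floor of 3 reads over the CD4SP group. Klrg1, an inhibitory lectin-like receptor found on terminally differentiated T cells, had 2 CD4SP reads and stood at 9.53, 17.1 and 10.3 CPM in rTreg and 243, 263 and 210 CPM in aTreg. Both genes were thus present in every splenic library and many times higher in aTreg.

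Atp6v0d2, a subunit of the proton-pumping vacuolar ATPase, was at 26.9 CPM in rTreg and 113 CPM in aTreg with 5 reads in CD4SP. Coro2a, a coronin-family actin regulator, was at 0.89, 0.151 and 0.778 CPM in CD4SP, 297, 311 and 282 CPM in rTreg and 266, 260 and 234 CPM in aTreg. Its difference between the states, -0.23, did not pass the test, although all rTreg libraries were above all aTreg libraries. Hepacam2 was the only one of the 14 with over 4 times more in rTreg (21.0, 26.5 and 29.6 CPM) than in aTreg (4.08, 6.37 and 5.95 CPM), and it had 2 reads in CD4SP. Gzmb, the cytotoxic protease granzyme B, was at 9.32 CPM in rTreg and at 177, 142 and 210 CPM in aTreg, against 9 reads in CD4SP.

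Bpifa2, which encodes a secreted protein of salivary glands, behaved unlike the other 13. It had no read in the CD4SP or the thymic Treg libraries, and was at 17.7, 8.11 and 1.69 CPM in rTreg and 16.1, 11.97 and 1.66 CPM in aTreg. The third library of each state was the lowest. The splenic mean was at least 330-fold above the floor of 3 reads, with a standard error of 4.02 on the log2 scale. Its adjusted p of 0.022 in edgeR rose to between 0.054 and 0.067 when any 1 of the 3 CD4SP libraries was left out, and limma voom did not call it.

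Several genes that IL-2 signalling induces were higher in both splenic states. Of 21 JAK, STAT and SOCS genes 12 rose and 3 fell in the mean, with a median of 0.35. The rises were led by feedback regulators of cytokine signalling and by a kinase, not by the STAT factors. Socs2, a suppressor of cytokine signalling, was at 0.148, 0.0757 and 0.241 CPM in CD4SP, 76.8, 84.6 and 100 CPM in rTreg and 45.7, 56.8 and 75.4 CPM in aTreg. Cish, the STAT5-induced inhibitor of the same family, was at 20.4, 23.7 and 18.7 CPM in CD4SP, 319, 339 and 308 CPM in rTreg and 269, 238 and 272 CPM in aTreg. Both stood slightly higher in rTreg, by 0.56 and 0.31, and were far above every CD4SP library.

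Pim1, a survival kinase induced by STAT factors, rose 16.3-fold, from 5.25 ± 0.72 CPM to 92.6 ± 5.13 in rTreg and 79.0 ± 3.13 in aTreg (SD, n = 3). Its relative Pim2 went the other way in the same libraries: 90.0, 89.2 and 81.0 CPM in CD4SP against 32.3, 43.9 and 41.3 CPM in rTreg and 35.4, 37.3 and 44.0 CPM in aTreg. Socs3, which limits signalling through receptors of the IL-6 type, rose by 2.18, and Socs1 by 1.23. Stat5a rose by 0.35, with 108 CPM in rTreg but 69.6 CPM in aTreg against 67.8 CPM in CD4SP, and Stat5b (0.06) did not pass the test.

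Serpina3f and Serpina3g, neighbouring serine protease inhibitor genes on chromosome 12, and Socs3 are shown with the 250 bases before their starts, because each of the 3 was higher in both states and each window holds the palindrome TTCNNNGAA, the core of the STAT binding motif. Sequences are those of RefSeq on GRCm38.p6, 5′ to 3′ on the gene's strand, with the palindrome in capitals. The windows are chr12:104214294-104214543 (plus strand), chr12:104235897-104236146 (plus strand) and chr11:117969367-117969616 (minus strand), in that order. For Serpina3f 2 starts were listed, and the window is that of the first listed.
Serpina3f: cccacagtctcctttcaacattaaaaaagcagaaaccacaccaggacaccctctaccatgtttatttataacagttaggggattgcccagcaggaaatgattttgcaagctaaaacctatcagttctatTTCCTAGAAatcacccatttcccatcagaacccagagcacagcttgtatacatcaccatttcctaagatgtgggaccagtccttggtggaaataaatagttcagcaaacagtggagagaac
Serpina3g: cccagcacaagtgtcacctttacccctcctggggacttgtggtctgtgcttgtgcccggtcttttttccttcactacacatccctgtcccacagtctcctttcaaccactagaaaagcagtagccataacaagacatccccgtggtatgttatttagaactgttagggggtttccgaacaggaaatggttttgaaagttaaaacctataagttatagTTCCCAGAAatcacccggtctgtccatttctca
Socs3: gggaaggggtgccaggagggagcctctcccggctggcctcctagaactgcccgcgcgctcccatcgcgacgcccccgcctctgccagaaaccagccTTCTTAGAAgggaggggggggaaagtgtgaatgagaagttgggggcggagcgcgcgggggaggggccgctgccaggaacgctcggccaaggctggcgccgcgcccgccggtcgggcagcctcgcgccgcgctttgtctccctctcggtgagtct
The pattern TTCNNNGAA reads the same on both strands, although the middle bases of each of the 3 matches do not. It began 121, 33 and 154 bases before the start of the 3 genes, and 7.02% of the 32851 promoter windows of this length held it (2306 windows), so a match describes the letters and is no evidence of binding. The windows of Serpina3f and Serpina3g share an unbroken run of 19 bases, and reads of these related genes may be counted for the wrong copy. Serpina3g was at 0.12 CPM in CD4SP, 45.2, 47.4 and 45.6 CPM in rTreg and 293, 253 and 262 CPM in aTreg. Serpina3f, with 1 read in CD4SP, was at 2.79, 2.33 and 2.78 CPM in rTreg and 25.5, 16.5 and 17.9 CPM in aTreg, so that both were higher in aTreg while Socs3 was not.

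Suppressive and effector molecules were higher in the spleen and mostly highest in aTreg. Of 28 such genes tested, 24 rose in the mean, none fell, and the median was 5.01, also with the 2 genes silent in CD4SP set at their lower bounds. The median was 3.59 in rTreg, where 22 rose and 1 fell, and 5.87 in aTreg, where 26 rose. In the direct contrast of the states, aTreg was higher at 24 of the 28 and lower at 1 (Prf1, the pore-forming protein perforin), where over all genes it was higher at 19.9% and lower at 18.1%.

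Within this list, Ebi3, a subunit of the cytokine IL-35, was at 5.99 ± 1.25 CPM in rTreg and 39.1 ± 5.55 in aTreg. Itgb8, the integrin chain that activates latent TGF-beta, was at 0.223, 0.177 and 0.241 CPM in CD4SP, 14.03, 14.5 and 19.5 CPM in rTreg and 56.7, 69.8 and 51.8 CPM in aTreg. Fgl2, a secreted fibrinogen-like suppressor molecule, was at 0.331 CPM in CD4SP, 17.1 in rTreg and 194 in aTreg. These 3 genes shared the order CD4SP, rTreg, aTreg with no overlap between groups. Lag3, an inhibitory receptor for MHC class II, went from 0.723 CPM to 24.6 ± 7.84 and 156 ± 24.8. Tgfb1, the transcript of TGF-beta itself, did not pass the test (0.29), with 3.25 CPM in CD4SP and 3.97 and 3.999 CPM in the splenic states.

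The adenosine pathway, by which Treg cells turn extracellular ATP into adenosine, rose at 8 of 11 genes and fell at Ada, the enzyme that breaks adenosine down (-0.40). Entpd1 (CD39, the first enzyme) was at 0.742, 1.24 and 0.751 CPM in CD4SP, 81.7, 72.8 and 65.5 CPM in rTreg and 128, 111 and 118 CPM in aTreg. Nt5e (CD73, the second) was at 20.8, 25.7 and 22.1 CPM in CD4SP, 472, 541 and 504 CPM in rTreg and 925, 1054 and 914 CPM in aTreg. Both enzymes rose in both states and further in aTreg, by 0.70 and 0.93. The adenosine receptor Adora2a rose by 3.17 and the ATP-gated channel P2rx7 by 4.39, the latter with a state difference of 0.09 that did not pass the test.

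Among receptors for cell traffic, most of those for inflammatory chemokines rose, and 3 that naive cells use to move between lymphoid tissues fell. Of 19 chemokine and related receptors 13 rose and 3 fell in the mean, with a median of 3.28. The falls were Ccr7 (entry to lymph nodes), S1pr1 (exit from thymus and nodes) and S1pr4. Cxcr3, a receptor for interferon-induced chemokines, was at 1.71, 1.94 and 2.66 CPM in CD4SP, 28.7, 34.0 and 30.0 CPM in rTreg and 267, 195 and 234 CPM in aTreg. Ccr6, which guides cells to mucosal sites, was at 0.556, 0.656 and 0.456 CPM, then 46.0, 48.2 and 39.4 CPM, then 172, 135 and 159 CPM in the same order of groups. No library of 1 group reached the next for these 2 genes.

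Ccr2 was at 451 ± 9.75 CPM in aTreg against 49.4 ± 15.4 in rTreg and 3.70 ± 0.90 in CD4SP. Cxcr5, the receptor for B cell follicles, rose by 5.52, and Gpr15, a receptor for homing to the gut, by 7.599. In the direct contrast aTreg was higher than rTreg at 15 of the 19 (all genes: 19.9%). Some of these receptors are also found on myeloid cells, whose markers rose in aTreg, and their part in the rise was not tested.

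Of 19 integrin and adhesion genes 11 rose and 3 fell (all genes: 27.7% and 25.8%). Itgae (CD103, which binds E-cadherin) went from 2.002 ± 0.30 CPM in CD4SP to 105 ± 20.7 in rTreg and 476 ± 10.999 in aTreg. Icam1, the ligand of the integrin LFA-1, rose 5.49-fold. Itgb3, the beta-3 integrin chain, fell 6.65-fold, from 265, 259 and 290 CPM in CD4SP to 72.6, 69.8 and 64.2 CPM in rTreg and 25.1, 24.0 and 23.5 CPM in aTreg.

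Transcription factors of effector lineages rose at 23 of 32 genes and fell at 5, with a median of 2.25. Maf, a factor that drives Il10 in T cells, was at 2.75, 4.04 and 3.70 CPM in CD4SP, 69.3, 81.2 and 79.6 CPM in rTreg and 511, 549 and 555 CPM in aTreg. Prdm1 (Blimp-1, a factor of effector Treg cells) went from 3.99 ± 2.2 CPM to 25.05 ± 2.03 and 153 ± 17.1, and Ikzf3 (Aiolos) rose 6.51-fold. Bhlhe40, a basic helix-loop-helix factor, rose 26.9-fold. For these 4 factors aTreg was above rTreg past the test. Klf4 (12.2 ± 0.34 CPM in rTreg and 14.9 ± 0.72 in aTreg against 0.218 ± 0.15 in CD4SP) and Klf6 (2.34) rose with state differences of 0.29 and -0.20 that were not past it. Ikzf1 (Ikaros) fell by 1.28, and Id2 (an inhibitor of E proteins) fell by 0.46 in the mean although aTreg, at 321 CPM, was above CD4SP at 226 CPM and rTreg at 83.5 CPM was below.

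Of 17 TNF receptor genes 12 rose and 2 fell (all genes: 27.7% and 25.8%). Of 23 NF-kB pathway genes, which act downstream, 17 rose and 1 fell (Map3k14, the kinase NIK). Tnfrsf4 (OX40) was at 105, 113 and 102 CPM in CD4SP, 560, 604 and 550 CPM in rTreg and 1074, 1276 and 1304 CPM in aTreg. Tnfrsf18 (GITR) rose 4.42-fold, Tnfrsf9 (4-1BB) 12.2-fold and Tnfrsf1b (TNF receptor 2) 5.27-fold. Of the 3 groups compared, aTreg held the most of all 4 receptors. The NF-kB changes were smaller, with a median of 0.38, and were led by the feedback inhibitors Tnfaip3 (A20, 2.61) and Nfkbiz (1.53), by the adaptor Traf1 (1.47) and by Rel (1.23), the subunit c-Rel.

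Of 22 co-stimulatory and inhibitory receptors 17 rose and 3 fell, the falls being Cd28, Cd96 and Lair1. Tigit, an inhibitory receptor for the poliovirus receptor CD155, was at 0.853, 0.353 and 0.402 CPM in CD4SP, 47.4, 54.997 and 51.0 CPM in rTreg and 698, 723 and 733 CPM in aTreg. Slamf1, a self-binding receptor of lymphocytes, rose by 1.46. Icos separated the states rather than the lineages, at 1901, 2002 and 2140 CPM in aTreg against 275, 329 and 321 CPM in rTreg and 301, 308 and 283 CPM in CD4SP.

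The T cell receptor (TCR) signalling machinery was lower in the splenic Treg mean, by small amounts. Of 25 genes 14 fell and 5 rose, with a median of -0.33. Cd3g, a chain of the receptor complex, was at 1868, 1981 and 1959 CPM in CD4SP, 907, 945 and 916 CPM in rTreg and 1089, 1245 and 1381 CPM in aTreg. Rasgrp1, which activates Ras, fell by 0.75, whereas the adaptor Lcp2 (SLP-76) rose by 0.40.

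Genes that TCR stimulation induces went up in contrast: 13 of 20 rose and 2 fell (Egr1 and Dusp6), with a median of 0.69. Rgs1, a regulator of G protein signalling, was at 12.2, 16.7 and 13.3 CPM in CD4SP, 778, 663 and 770 CPM in rTreg and 667, 621 and 683 CPM in aTreg. Spry1, an inhibitor of Ras signalling, rose by 6.05, Rgs16 by 4.95 and Dusp4, a phosphatase of MAP kinases, by 3.81. The list of genes known to respond to tissue handling moved in the same direction, with sums of 1353 to 1762 CPM in CD4SP, 2371 to 2725 in rTreg, 2106 to 2429 in aTreg and 1402 to 1782 in thymic Treg. In it 9 of 17 rose and 1 fell. Fos, at 9.60 ± 1.7 CPM in CD4SP, 14.2 in thymic Treg, 298 ± 12.4 in rTreg and 229 ± 20.8 in aTreg, and Jun, at 10.2, 41.7, 216 and 129 CPM in the same order, were both lower in thymic Treg than in either splenic state. The part of handling in the early genes was not tested.

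Of 17 BCL2 family genes 12 rose and 1 fell (all genes: 27.7% and 25.8%). Pmaip1 (Noxa) and Bid, which promote cell death, rose by 4.53 and 1.81, and the protective Bcl2l1 (BCL-XL) by 1.12. Bcl2 itself was the fall, by 0.25 in the mean, from 547, 443 and 477 CPM in CD4SP to 856, 753 and 802 CPM in rTreg and 204, 202 and 222 CPM in aTreg. The small fall of the mean thus joined a level above CD4SP in rTreg and one below it in aTreg.

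Turning to genes that were lower in splenic Treg cells, the 14 largest falls were Chl1, Gpr97, Slc15a1, Adamts14, Tubb3, Mn1, Elovl7, Atp8b4, Pde3b, Lypd6b, Ggt5, Abhd15, Pyroxd2 and Pdlim4. Pde3b, a phosphodiesterase that breaks down cyclic AMP and a known target of repression by Foxp3, was at 138, 159 and 171 CPM in CD4SP, 6.999, 5.78 and 6.83 CPM in rTreg and 2.46, 2.84 and 2.06 CPM in aTreg. It lies on chromosome 7 (114415281 to 114539251, plus strand) and fell by 5.28 ± 0.13. Gpr97, an adhesion G protein-coupled receptor, was at 34.5, 32.3 and 31.7 CPM in CD4SP and at most 0.48 CPM in any splenic library. Atp8b4, a phospholipid flippase, fell 44.3-fold, to 3.18 CPM in rTreg and 0.50 CPM in aTreg. Each of these 3 genes was lower in aTreg than in rTreg, past the test.

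Chl1, a neural cell adhesion molecule, left 4 reads in the 6 splenic libraries against 8.16, 10.04 and 15.7 CPM in CD4SP, a ratio of 519 with a 95% counting interval of 203 to 1906. Tubb3, a beta tubulin known from neurons, was at 11.9 CPM in CD4SP and 7.603 CPM in thymic Treg but at 0.29 and 0.059 CPM in rTreg and aTreg, so thymic Treg was nearer to CD4SP. Pyroxd2 (32.6 CPM in CD4SP, 16.8 in thymic Treg, 2.24 and 0.56 in the splenic states) lay between. Ggt5 (36.7, 1.01, 2.17 and 0.55 CPM in the same order) and Pdlim4 (37.5, 0.66, 2.54 and 0.85 CPM) were low in all Treg groups.

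Genes of conventional and naive CD4 cells fell at 23 of 30 and rose at 3 (Tnfsf11, Il6ra and Il6st), with a median of -1.15. Tcf7, the factor TCF-1 that maintains naive and memory T cells, was at 1607, 1432 and 1329 CPM in CD4SP, 342, 305 and 325 CPM in rTreg and 174, 151 and 158 CPM in aTreg. Satb1, a chromatin organiser that Foxp3 represses, was at 827, 655 and 758 CPM, then 337, 287 and 307 CPM, then 83.1, 84.7 and 93.4 CPM in the same groups. Both fell in each state and further in aTreg, by 1.01 and 1.83. Cd40lg, the helper ligand for B cells, fell 4.13-fold to nearly the same level in both states (31.9 ± 0.54 and 34.6 ± 3.69 CPM), while Igfbp4, a marker of naive T cells, went from 386 ± 19 CPM to 93.4 ± 4.66 and then 12.9 ± 1.64. The list's median was -0.41 in rTreg, with 17 falls and 5 rises, and -1.82 in aTreg, with 24 falls and 2 rises.

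Genes of immature thymocytes fell at 11 of 19 and rose at 5, with a median of -1.60. Rag1, which cuts receptor gene segments, was at 3.49, 3.71 and 5.53 CPM in CD4SP and had 1 read in the 6 splenic libraries, a ratio of 779 with a counting interval of 140 to 30766. Rag2 had no splenic read and was at least 160-fold lower than in CD4SP. Dntt, the enzyme that adds untemplated bases at receptor joints, went from 47.8, 42.3 and 51.8 CPM to 6.19, 5.07 and 4.06 CPM in rTreg and 2.13, 0.442 and 0.598 CPM in aTreg. Thymic Treg held 8.22 CPM of Rag1, 3.18 of Rag2 and 32.2 of Dntt, so these transcripts were present in both thymic populations. The CD8 chain Cd8b1 also fell, from 93.3, 87.0 and 86.2 CPM to 39.1, 36.8 and 39.0 CPM and 25.4, 21.0 and 20.8 CPM. The rises in this list included Ccr9, Tox, Cd69 and Cd38, which mature T cells also use.

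Of 28 genes of maturation and egress 15 rose and 7 fell, the falls being near the share of all genes (25.8%). The classical MHC class I genes H2-K1 and H2-D1, whose near-identical relatives make their counts uncertain, rose by 0.67 and 0.68 with state differences of 0.07 and 0.08 that did not pass the test, Gimap7, a GTPase of lymphocyte survival, by 1.796 and Ly6e by 1.43. Cd44, an adhesion receptor of antigen-experienced cells, was at 148 ± 6.77 CPM in rTreg and 383 ± 17.2 CPM in aTreg against 73.2 ± 6.2 in CD4SP. Cd52, a small surface glycoprotein, fell by 1.47.

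Interferon-stimulated genes moved in both directions. Of 32 in the list 17 fell and 6 rose, with a median of -0.56. The falls included antiviral genes that type I interferon induces, as well as Irgm1, a GTPase of the interferon-gamma response (-0.44). Ifi44 was at 51.1, 63.7 and 54.0 CPM in CD4SP, 5.86, 3.52 and 6.51 CPM in rTreg and 4.25, 3.32 and 4.82 CPM in aTreg. Oasl2, an oligoadenylate synthetase-like protein, was at 98.7, 151 and 120 CPM, then 27.9, 26.6 and 35.7 CPM, then 10.3, 7.48 and 12.2 CPM. Irf7, the factor that amplifies this response, fell by 1.70 and Ifit1 by 2.11. Splenic libraries were below all CD4SP libraries for these 4 genes. Thymic Treg lay between, with 20.6 CPM of Ifi44 and 63.6 CPM of Oasl2.

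The 6 rises were Gbp2, Gbp3, Gbp6, Gbp7, Igtp and Ifi204, of which the first 5 encode GTPases that interferon-gamma induces. Gbp3 was at 14.6, 21.3 and 16.4 CPM in CD4SP, 324, 335 and 356 CPM in rTreg and 322, 378 and 374 CPM in aTreg, and Gbp7 at 374, 455 and 420 CPM, 881, 868 and 968 CPM and 857, 931 and 963 CPM. Their differences between the states, 0.08 and 0.02, did not pass the test. The Gbp genes have near-identical relatives, and reads that aligned to several places were set aside, so their levels are uncertain.

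Of 19 genes in the TGF-beta list 7 rose and 9 fell, where 27.7% of all genes rose and 25.8% fell. Among those that present or activate latent TGF-beta, Lrrc32 and Itgb8 rose as given above, the integrin chain Itgav by 1.16 and the protease Furin by 0.93. Of the receptors, Tgfbr1 rose by 1.89, Tgfbr2 fell by 1.48 and Tgfbr3 by 3.90. Tgfbr2 was at 276, 245 and 250 CPM in CD4SP, 112, 100 and 100.5 CPM in rTreg and 88.5, 82.8 and 72.3 CPM in aTreg. Smad7, the inhibitory Smad, fell by 0.74.

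Of 27 cytokine receptor genes 17 rose and 4 fell (all genes: 27.7% and 25.8%). Beyond the IL-2 receptor, Il10ra and Il10rb, the chains of the IL-10 receptor, rose by 2.37 and 1.70. Il1rl1 (ST2, the receptor of the alarmin IL-33) had 6 reads in CD4SP and was at 8.94, 7.43 and 10.7 CPM in rTreg and 19.9, 24.7 and 24.5 CPM in aTreg, a ratio of 278 with a counting interval of 128 to 757. Il7r, the IL-7 receptor of naive cells, did not pass the test, with means of 572, 503 and 539 CPM in CD4SP, rTreg and aTreg.

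Cell cycle transcripts were lowest in rTreg of the 3 groups compared. Of 32 genes 27 fell in the mean and 1 rose (Mcm6), with a median of -0.69, but the states differed: rTreg was lower than CD4SP at 30 of 32, and aTreg at 5. In the direct contrast aTreg was higher than rTreg at 28 and lower at none (all genes: 19.9% and 18.1%). Top2a, which untangles replicating DNA, was at 276, 337 and 372 CPM in CD4SP, 47.4, 75.6 and 79.6 CPM in rTreg and 149, 179 and 213 CPM in aTreg. Mki67, the proliferation marker, was at 102 ± 9.9, 33.6 ± 11.6 and 119 ± 18.7 CPM in that order. For Top2a all aTreg libraries lay between the other groups, while for Mki67 aTreg and CD4SP overlapped and rTreg lay below both.

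Cholesterol and fatty acid synthesis rose at 17 of 22 genes and fell at 2 (Srebf1 and Scd2), with a median of 0.88. Cyp51, a sterol demethylase, rose 3.08-fold. Of 20 glycolysis genes 12 rose and 4 fell, with a median of 0.26, where 27.7% of all genes rose and 25.8% fell. Gapdh, Eno1 and Pgam1 held only 2492, 3595 and 2940 reads over all 28 libraries, against 830824 for Ldha, so their levels are uncertain. The glucose transporter Slc2a3 rose 4.59-fold, with a state difference of 0.07 that did not pass the test. Of 88 oxidative phosphorylation genes 32 fell and 3 rose (median -0.15). Of 79 ribosomal protein genes 37 fell and 6 rose; 54 fell in aTreg against 7 in rTreg, and aTreg was below rTreg at 55. Many ribosomal protein genes have processed copies, so their counts are uncertain.

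**Figure D3:**
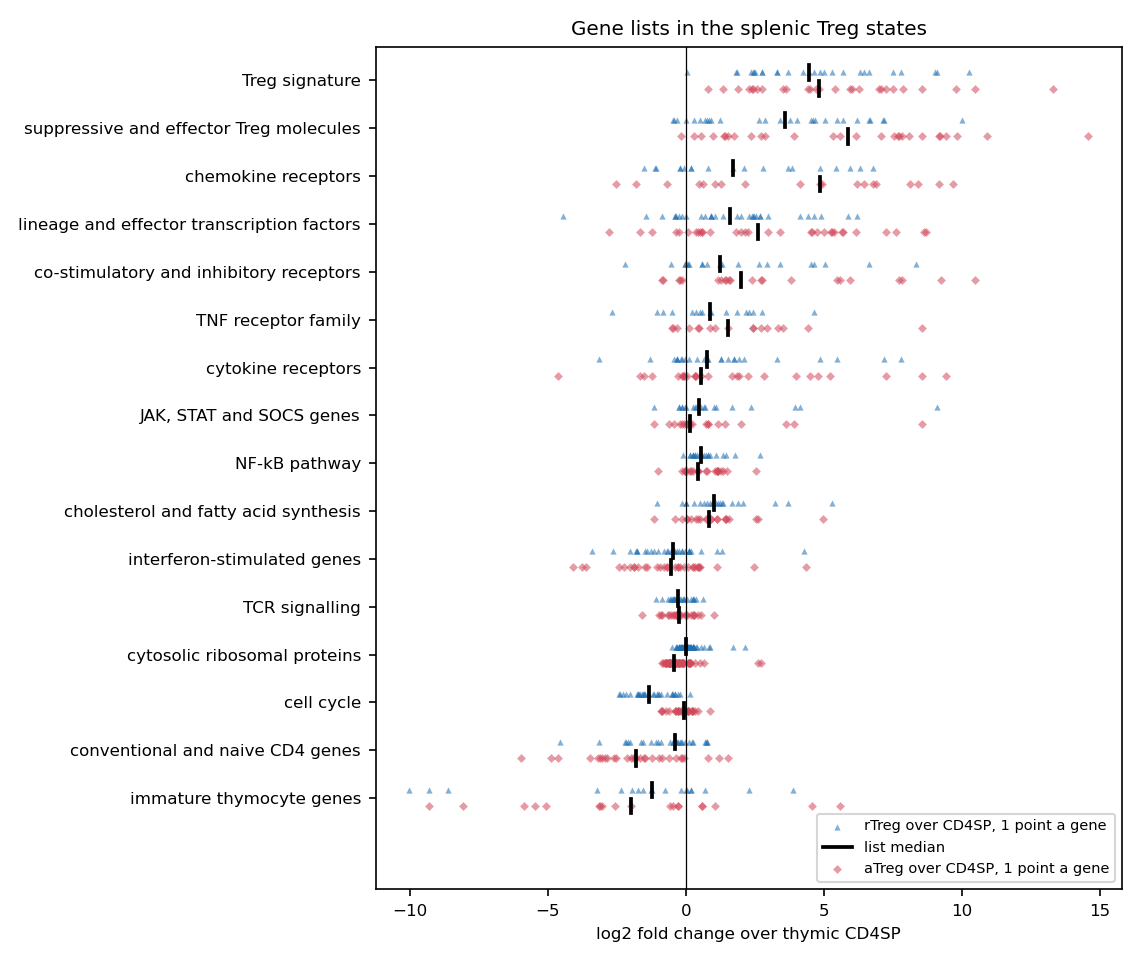
Log2 fold changes over thymic CD4SP of the tested genes of 16 lists, in rTreg and in aTreg, 1 point a gene, with the list median as a black bar. The medians of the Treg signature are 4.46 and 4.81, those of the cell cycle list -1.36 and -0.06, and those of the conventional and naive list -0.41 and -1.82.

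How far the splenic states shared each change was read from the direct contrast of aTreg and rTreg, which uses no CD4SP library. Across all genes aTreg was higher at 2650 (19.9%) and lower at 2410 (18.1%). Of the 3691 genes that were higher in the splenic mean, aTreg was above rTreg at 1556 (42.2%), rTreg above aTreg at 436 (11.8%), and 1699 (46.0%) showed no called difference. Of the 3442 that were lower, rTreg was above aTreg at 1147 (33.3%), aTreg above rTreg at 363 (10.5%), and 1932 (56.1%) showed none. Among rises beyond 2 on the log2 scale, the share with aTreg above rTreg was 61.3% of 1241.

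**Figure D4:**
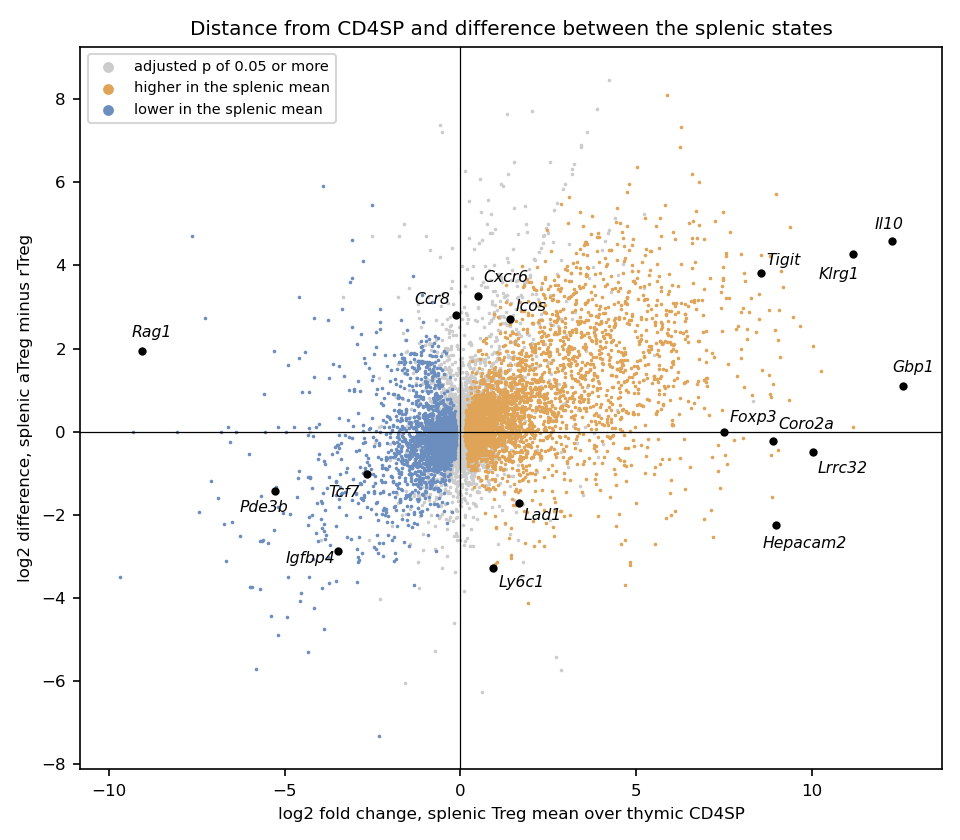
Each of the 13338 genes tested, by its log2 fold change in the splenic mean over CD4SP (horizontal axis) and its aTreg minus rTreg difference (vertical axis), coloured by the call in the mean. Foxp3 and Coro2a lie near 0 on the vertical axis, Il10, Klrg1 and Tigit above 3.8, and Hepacam2 below -2.

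The rises that separated the states least, among 543 that exceeded a factor of 2 in each state, were Mgat5, Ppp2r3a, Foxp3, Gbp7, Cd200, Slc25a24, Inpp5a and Pafah1b3. Cd200, the ligand of an inhibitory receptor of myeloid cells, was at 72.6, 79.8 and 78.7 CPM in CD4SP, 161, 190 and 194 CPM in rTreg and 160, 193 and 198 CPM in aTreg. Mgat5, which builds branched N-glycans, was at 8.79, 7.69 and 6.44 CPM, 20.9, 16.9 and 21.1 CPM, and 19.99, 19.7 and 19.5 CPM. Pafah1b3 lost its rise when the level of B, dendritic and myeloid markers entered the fit (-0.05). Among 206 such falls, Spsb1, an adaptor of a ubiquitin ligase, was at 56.5, 61.9 and 54.9 CPM in CD4SP, 12.1, 10.8 and 12.2 CPM in rTreg and 12.02, 12.6 and 10.6 CPM in aTreg, and Rsad2, Ankrd37 and Pim2 followed. With the marker level in the fit, Rsad2 (-1.29) and Pim2 (-0.29) were no longer past the test.

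At a small share of genes the states lay on opposite sides of CD4SP, and most of these had no call in the mean. At 54 of the 13338 genes tested rTreg was lower and aTreg higher than CD4SP, each past its own test. Of these, 44 had no call in the mean. At 76 rTreg was higher and aTreg lower, 67 without a call in the mean. For scale, 5725 genes were called in rTreg and 7370 in aTreg against CD4SP. Ccr8, a chemokine receptor of skin and tumour Treg cells, was at 80.6, 79.7 and 81.2 CPM in CD4SP, 26.1, 29.6 and 27.5 CPM in rTreg and 180, 218 and 191 CPM in aTreg. Ms4a4c, a membrane protein of the MS4A family, went the other way, at 34.9, 39.8 and 34.7 CPM in CD4SP, 80.97, 69.6 and 76.7 CPM in rTreg and 12.02, 13.52 and 14.7 CPM in aTreg. Both genes had no overlap between any 2 of the 3 groups. Ly6c1, a surface antigen of the Ly6 family, was also highest in rTreg, at 52.0, 68.7 and 51.6 CPM in CD4SP, 413, 309 and 309 CPM in rTreg and 30.9, 31.3 and 43.3 CPM in aTreg.

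Genes shared with B, dendritic and myeloid cells rose together with those cells' markers. Of the other-cell lists 12 of 13 B cell, 10 of 11 dendritic and 12 of 17 myeloid markers tested were higher in the splenic mean. The MHC class II gene H2-Aa was at 3.12, 2.50 and 7.11 CPM in CD4SP, 53.7, 35.6 and 30.7 CPM in rTreg and 153, 72.0 and 75.7 CPM in aTreg. The defining B cell factor Pax5 had no CD4SP read and was at 0.24 and 0.27 CPM in the splenic states. When the summed marker level of each library entered the fit, the rises of H2-Aa (-0.17), H2-Eb1 (-0.49), Ciita (-0.07), Csf1r (-0.62), C1qa (-1.51) and C1qb (-1.71) turned to the negative values given. These genes are themselves part of that sum. The marker level was also higher in every WT splenic library than in every WT CD4SP library. This fit therefore cannot tell marker level and group apart, whether a call was lost or kept. Among all named genes 15 lost their call with this term and 11 reversed. Foxp3, Il2rb, Lrrc32, Tcf7 and Pde3b were among those that kept their direction and their call.

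A comparison with thymic Treg keeps the labelled lineage and changes the tissue. The splenic mean was above thymic Treg at 2161 genes (16.2%) and below at 2499 (18.7%). This contrast shares the splenic libraries with the one above, so values are given side by side. Of the Treg signature 9 genes were higher in the spleen than in thymic Treg, 12 lower and 6 not called, with a median of -0.08. Il2ra (0.11), Nrp1 (-0.23), Lrrc32 (-0.02) and Foxp3 (-0.08) did not pass the test, while Lad1 (-3.30), Penk (-1.82) and Swap70 (-1.19) were higher in thymic Treg.

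Several genes that rose over CD4SP were also above thymic Treg. Klf4, which was not among the 14 largest, was at 1.25 CPM in thymic Treg and 3.39 higher in the splenic mean on the log2 scale. The same difference was 2.88 for Il10, 2.68 for Atp6v0d2, 2.57 for Klrg1, 2.31 for Serpina3f, 2.19 for Gbp1 and 1.84 for Gzmb. Naive CD4 genes were mostly lower in the spleen in this comparison too (17 of 30, with 5 higher), for example Ccr7 by 1.39 and Tcf7 by 1.33, although thymic Treg (573 CPM of Tcf7) were already below CD4SP (1456 CPM). Cell cycle genes were called higher at 1 and lower at 3 of 32.

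The KO libraries, none of which entered the WT contrast, gave a second measurement of the same difference. The splenic mean was higher than CD4SP at 3999 genes (30.0%) and lower at 3918 (29.4%). Of the 3691 genes higher in WT, 3324 (90.1%) were also called higher in KO, of the 3442 lower ones 3093 (89.9%) were called lower, and none was called in the opposite direction. Across the 13338 genes the WT and KO log2 fold changes had a Pearson r of 0.907 and a Spearman rho of 0.897, as a description over genes, which are not independent. The list medians in KO and WT were 4.38 and 4.68 for the Treg signature, -1.14 and -1.15 for conventional and naive genes, -0.89 and -0.69 for the cell cycle, 0.76 and 3.28 for chemokine receptors and 0.87 and 2.74 for myeloid markers.

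The second KO CD4SP library stood apart. It held 294.9 CPM of myeloid markers against 88.96 to 105.2 in the other 3 KO CD4SP libraries, 261.4 of dendritic cell markers against 56.95 to 76.6 and 93.9 of NK cell markers against 6.41 to 11.2. Without it the KO median was 3.32 for chemokine receptors, 3.43 for myeloid markers and 4.41 for the Treg signature, as an alternative added after seeing the data.

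**Figure D5:**
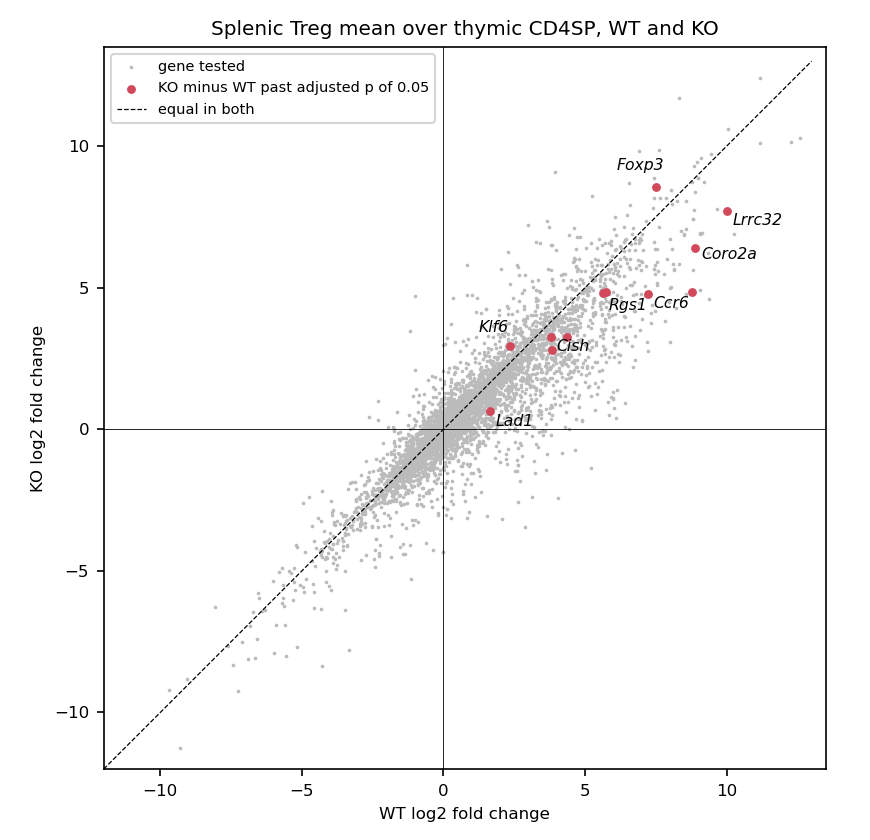
Log2 fold changes of the splenic Treg mean over CD4SP in WT (horizontal axis, 9 libraries) and KO (vertical axis, 12 libraries) for the 13338 genes tested, with the dashed line of equal values. The 12 genes whose KO minus WT difference passed the test are marked, 10 of them below the line, as Lrrc32 (10.02 in WT and 7.72 in KO), and 2 above it, as Foxp3 (7.51 and 8.55).

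The difference of the differences, KO minus WT, passed the test at 12 genes, 2 of them positive (0.0150%) and 10 negative (0.0750%). Lrrc32 (-2.30), Ccr6 (-2.42), Coro2a (-2.49), Atp6v0a1 (-1.05) and Lad1 (-1.02) rose less in KO, and Foxp3 more (1.04). Without the second KO CD4SP library 1 positive and 8 negative calls were made, Lrrc32 (-2.15), Ccr6 (-1.96), Coro2a (-1.74), Atp6v0a1 (-0.95), Lad1 (-0.94) and Foxp3 (1.20) among them. The part of other cells in these differences was not tested. The means show where the gap arose. Lrrc32 was at 1.41 ± 0.32 CPM in KO and 0.31 ± 0.21 CPM in WT CD4SP, but at 347 and 362 CPM in rTreg of KO and WT. Foxp3 was at 1.44 ± 0.36 CPM in KO against 3.37 ± 0.13 CPM in WT CD4SP, and at 547 ± 39.6 against 618 ± 42.2 CPM in rTreg (SD, n = 4 KO and 3 WT). For these 2 genes the CD4SP groups differed by a larger factor than the splenic ones. These calls depended on the tool: limma voom gave 0 and DESeq2 gave 30. At an unadjusted p below 0.05 there were 418 of 13338 genes in limma voom and 646 in edgeR. Both counts are below the share of 0.05 of genes that chance gives. With the replicate number as a block there were 5 positive and 16 negative calls.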

How the data were processed

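Gene expression was measured by RNA sequencing of sorted CD4 T cells after SMART amplification, per the labels' protocols. The authors deposited whole-number read counts per gene symbol for each library, made with Trimmomatic, STAR and HTSeq on mm10, per the submitters' processing notes. For versions, annotation and strand setting the sources used here give nothing, and genes cannot be told apart from antisense partners. Rows that name no gene were left out. Of a library's reads not set aside for aligning to several places, 42.3 to 49.7% fell in no gene. With the reads at several places added to that total, they made up 22.8 to 30.4% of it. The percentages thus have unlike bases and cannot be added. Gene coordinates are from GENCODE on mm10, and the promoter windows are from RefSeq on GRCm38.p6. Of 23420 symbols, 21737 matched a GENCODE name directly and 1256 matched through an older symbol.

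All 28 libraries entered 1 fit of 8 group means with edgeR 4.0.16 in R 4.3.3 (filterByExpr, TMM, quasi-likelihood test, Benjamini-Hochberg at 0.05), which left 20 residual degrees of freedom. Total gene counts were 22037995 to 40754492 per library. Depth intervals cover counting error only, since reads carry no molecular identifiers. No 2 libraries of a group agreed within sampling noise. The fit was tested on simulated counts.

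The members and gene lists were chosen with earlier results of these data known. Named genes are Foxp3, the 14 largest rises and falls with at least 8 CPM and no overlap between libraries, the 4 called genes per list that had the lowest p, the 8 rises and 4 falls that differ least between states, the 4 largest opposed genes each way, the 5 smallest p of KO minus WT and the 8 largest differences from thymic Treg among the largest rises. Some genes that this rule picks are not reported here. Other genes named were chosen after their values were seen. Alternatives were DESeq2 1.42.0, limma 3.58.1 (voom), other scalings and filters, a replicate block, a test against a fold of 1.5, only the groups compared, and each library left out. A fit with the marker level of other cells as a covariate, and KO list medians without each KO CD4SP library, were added after seeing the data. Replicate numbers come from the titles, which do not say what they mark. In WT every same-numbered CD4SP and rTreg pair correlated above 0.1 in its deviations from the group means (0.102 to 0.145), so the numbers were taken as a pairing for rTreg against CD4SP, where the block gave 3267 rises and 2827 falls.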

Additional observations from a re-analysis of the deposited data

Results flagged for a closer look

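The KO minus WT difference of the log2 fold change between the splenic Treg mean and CD4SP passed edgeR's test at 9 of the genes examined. It was -2.30 for Lrrc32, -2.42 for Ccr6, -1.05 for Atp6v0a1, -1.02 for Lad1, -2.49 for Coro2a, -0.54 for Cish and -0.81 for Rgs1, and 1.04 for Foxp3 and 0.60 for Klf6. Without the second KO CD4SP library, Cish (adjusted p = 0.067), Rgs1 (0.12) and Klf6 (0.12) did not pass edgeR's test.

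At 7 genes that the naming rule picked as opposed, rTreg and aTreg lay on opposite sides of CD4SP, each past its own test. The aTreg minus rTreg difference was 3.34 for Nav2, 3.26 for Cxcr6, 3.13 for Il17rb and 2.82 for Ccr8. It was -3.29 for Ly6c1, -2.74 for Ccdc164 and -2.50 for Ms4a4c.

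In 3 of 27 groups of 4 libraries examined, 1 library lay far from the others, where chance gives about 1 group in 20. Ccr6 stood at 5.77 CPM in the second KO CD4SP library against 2.004 to 2.38 in the others. Lad1 stood at 13.4 CPM in the same library against 10.6 to 10.8. Atp6v0a1 stood at 20.3 CPM in the first KO aTreg library against 24.2 to 24.8.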

How the results depend on the processing

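Of 2944 comparisons of the 155 named genes with an alternative, 2886 kept direction and call, 45 lost the call, 2 gained it and 11 reversed. All 11 reversals came with the marker level of other cells in the fit: C1qa -1.51, C1qb -1.71, Ciita -0.067, Csf1r -0.62, Cst3 -0.00057, Cxcr6 -1.54, H2-Aa -0.17, H2-Eb1 -0.49, Igj -4.75, Mzb1 -1.17 and Pafah1b3 -0.046. That level separated the splenic from the CD4SP libraries in WT, so the fit cannot tell marker level and group apart. The cause was not tested. The same fit called 1737 rises and 1326 falls in the splenic mean, and 1464 and 1256 genes in aTreg minus rTreg.

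Tested against a fold of 1.5, the rises and falls numbered 1892 and 869 in the mean, 1425 and 702 in rTreg, 2281 and 996 in aTreg, 1162 and 409 in aTreg minus rTreg, 393 and 658 against thymic Treg, 1899 and 1064 in KO, and 0 and 2 in KO minus WT. This setting asks for a larger change by construction.

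KO minus WT moved most. Positive calls numbered 1 with RLE and 1 with upper quartile scaling; DESeq2 gave 4 positive and 26 negative, voom 0 and 0, no filter 18 negative, the fit on only the groups compared 6 negative, and the replicate block 5 and 16. With each library left out there were 0 to 2 positive and 4 to 17 negative calls, with 8 negative without the second KO CD4SP library and 17 without the fourth.

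Leave-one-out counts of the WT mean were 3385 to 3818 rises and 2836 to 3407 falls. Same-numbered libraries correlated at 0.01 to 0.21 in WT (4 of 9 pairs over 0.1) and 0.05 to 0.23 in KO (8 of 12), a hint of pairing. No differently numbered pair was over 0.1. Deviations from a group mean cancel within the group, so a positive same-numbered value pulls the others down. The low values of differently numbered pairs therefore add no separate support. The replicate block gave 3820 rises and 3599 falls in the WT mean and changed no call among the named genes there.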
